A study of Homo sapiens with 8 samples.

Results

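The MYC network and the proteins named for binding MYC were described with 10 genes of the 27475 human genes in the expression tables of siPAI-1 and Scr libraries from a pair of bladder cancer cell lines. The members are *MYC*, *MYCN*, *MYCL*, *MAX*, *MXD1*, *MXI1*, *MNT*, *MLX*, *MYCBP* and *MYCBP2*, selected by symbol. The set was chosen because *MYCBP* measured higher after siPAI-1 in UM-UC-3, so the members' values in that contrast are given as a description without a test. UM-UC-3 and RT112 are established human bladder cancer cell lines, each of them 1 line. The cells of all groups went through transfection with 100 pmol of siRNA and were harvested after 72 h. They received either 3 pooled siRNAs against PAI-1 (siPAI-1), or 3 pooled scrambled siRNAs (Scr). The 4 groups are UM-UC-3 Scr, UM-UC-3 siPAI-1, RT112 Scr and RT112 siPAI-1, with 2 mRNA libraries each. The depletion of PAI-1 asked which genes depend on PAI-1, and the members were read for it within each line and then between the lines. The study describes the knock-down in 3 independent experiments, while each group here has 2 libraries. The labels do not say which culture a library came from, so p-values measure only the spread between these libraries, which may be technical.

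MYC, MYCN and MYCL are transcription factors that bind DNA as dimers with MAX, preferentially at E-box sequences, and activate genes of ribosome production, metabolism and cell growth. MXD1, MXI1 and MNT compete for MAX and bring corepressors to the same sequences, and MLX forms a parallel arm with the glucose-responsive factors MLXIP and MLXIPL. MYCBP is a small protein that binds the N-terminal part of MYC and also A-kinase anchoring proteins, while MYCBP2 is a very large ubiquitin ligase known mainly from axon and synapse biology.

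The 250 bases before the annotated transcription start, the outermost where a gene has several, are shown for 5 members, *MYCBP* as the gene behind the choice of the set, *MYCL* and *MXI1* with the widest gaps between the lines, and *MNT* and *MLX* as the members with a CACGTG. Sequences are from RefSeq on GRCh38.p14, the build of the tables, written 5′ to 3′ on the strand of the gene. Capitals mark matches to CANNTG, the general E-box, which reads the same on both strands and includes CACGTG.
MYCBP, chr1:38873379-38873628, minus strand: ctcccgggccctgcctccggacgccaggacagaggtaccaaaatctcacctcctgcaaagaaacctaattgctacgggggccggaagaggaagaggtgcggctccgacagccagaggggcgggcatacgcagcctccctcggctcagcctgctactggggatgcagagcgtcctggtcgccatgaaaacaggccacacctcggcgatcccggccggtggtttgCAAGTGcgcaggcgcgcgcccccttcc
MYCL, chr1:39901918-39902167, minus strand: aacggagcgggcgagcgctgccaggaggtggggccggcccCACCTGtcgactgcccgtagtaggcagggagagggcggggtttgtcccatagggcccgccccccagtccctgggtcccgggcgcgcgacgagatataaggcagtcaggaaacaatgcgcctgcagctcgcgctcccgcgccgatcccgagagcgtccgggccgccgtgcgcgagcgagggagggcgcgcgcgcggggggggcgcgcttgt
MXI1, chr10:110207355-110207604, plus strand: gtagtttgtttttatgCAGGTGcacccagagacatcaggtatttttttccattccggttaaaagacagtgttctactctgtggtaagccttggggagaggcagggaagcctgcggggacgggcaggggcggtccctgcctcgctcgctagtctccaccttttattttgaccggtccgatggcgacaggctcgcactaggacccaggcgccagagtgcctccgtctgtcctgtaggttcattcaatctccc
MNT, chr17:2401061-2401310, minus strand: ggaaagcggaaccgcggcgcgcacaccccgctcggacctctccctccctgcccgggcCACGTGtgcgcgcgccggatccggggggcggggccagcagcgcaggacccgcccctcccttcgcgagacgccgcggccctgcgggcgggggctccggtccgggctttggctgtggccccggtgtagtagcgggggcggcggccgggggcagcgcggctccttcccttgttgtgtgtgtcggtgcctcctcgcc
MLX, chr17:42566850-42567099, plus strand: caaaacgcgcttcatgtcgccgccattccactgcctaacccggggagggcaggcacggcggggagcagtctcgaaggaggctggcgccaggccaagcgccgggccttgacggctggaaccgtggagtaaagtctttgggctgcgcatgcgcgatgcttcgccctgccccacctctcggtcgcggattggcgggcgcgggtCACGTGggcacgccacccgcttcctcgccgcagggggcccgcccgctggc
The match in *MYCBP* begins 27 bases before the start and reads CAAGTG, that in *MYCL* reads CACCTG and that in *MXI1* reads CAGGTG. *MNT* has its CACGTG 193 bases and *MLX* 50 bases before the start. RefSeq gives some genes several starts, and the 9 members had 13 windows. The second start of *MYCBP* has the same match 57 bases before it, and the windows of the 2 other starts of *MXI1* held no CANNTG. A gene was counted where any of its windows held the motif. Of 27305 genes with such windows, 7.73% held CACGTG and 66.7% held CANNTG. Among the 9 members with a window, 2 held CACGTG and 8 held CANNTG, the exception being *MAX*. The *MAX* windows, chr14:65102284-65102533 and chr14:65101685-65101934 on the minus strand, lie within the span of the gene, which ends at 65102695. The bases before that outer end were not read, so the lack of a match holds for these windows only. In the list of genes commonly given as induced by MYC, 17 of 52 genes with a window (32.7%) held CACGTG and 30 (57.7%) held CANNTG. A match describes these letters and is not a measured binding site.

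The genes lie apart on the genome, except that *MYCBP* (chr1:38862490-38873378, minus strand) and *MYCL* (chr1:39895428-39901917, minus strand) are separated by 1.02 Mb. *MXI1* spans chr10:110207605-110287365, *MAX* chr14:65006101-65102695, *MLX* chr17:42567100-42573203, *MNT* chr17:2384073-2401060, *MXD1* chr2:69915109-69942945, *MYCN* chr2:15940550-15947004 and *MYCBP2* chr13:77044657-77327094. *MYC* is on chromosome 8.

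TPM is the read count per gene length scaled to 1 sum per library, and depth was estimated at 29.3 to 34.2 M reads per library (M for mega). Urothelial and epithelial markers summed to 227.4 to 245.8 TPM in UM-UC-3, with 6 of 16 genes at a mean of 1 TPM or more, and to 12390 to 14050 TPM in RT112. Mesenchymal markers (7 genes) summed to 3031 to 3321 TPM in UM-UC-3 and 115.5 to 217.8 TPM in RT112. Of these 7, 4 were called higher in UM-UC-3 and 2 higher in RT112 (adjusted p under 0.05, limma). The latter were *SNAI2* (log2 difference 1.83) and *FN1* (0.55). The 6 leukocyte markers summed to 272.9 to 279.6 TPM in UM-UC-3 and 14.4 to 19.82 TPM in RT112, and *CD68*, also known from lysosomes of other cells, was the 1 marker that reached a mean of 1 TPM. The fibroblast list summed to 135.2 to 154.4 TPM in UM-UC-3 and 17.78 to 25.61 TPM in RT112, and endothelial markers to at most 2.51 TPM. *COL3A1* alone had 128.85 to 147.66 TPM in UM-UC-3, while *LUM* had 0.19 to 1.31 TPM there and 10.67 to 17.97 TPM in RT112. Of 6 fibroblast genes tested, 4 were called higher in UM-UC-3 and 2 higher in RT112. In bulk RNA, fewer cells that express a gene and less RNA per cell cannot be told apart.

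*MYC* was the highest of the members in both lines and *MYCN* the lowest. In UM-UC-3 the mean levels over 4 libraries (± SD) ran from *MYC* at 160 ± 11.4 TPM through *MAX* at 101 ± 3.02, *MLX* at 60.8 ± 2.15, *MXI1* at 49.1 ± 1.38 and *MYCBP* at 35.5 ± 9.71 to *MYCBP2* at 22.3 ± 3.28 and *MNT* at 19.7 ± 3.25 TPM. *MXD1* at 2.84 ± 0.60, *MYCL* at 0.56 ± 0.337 and *MYCN* at 0.010 ± 0.012 TPM closed the order, in which *MYCBP2* and *MNT* were the neighbours whose libraries overlapped. In RT112 the order was *MYC* at 178 ± 8.70, *MAX* at 85.6 ± 2.13, *MYCBP* at 78.1 ± 3.63, *MLX* at 60.3 ± 2.51, *MYCBP2* at 28.2 ± 3.54, *MNT* at 22.4 ± 2.94, *MXI1* at 7.95 ± 0.377, *MYCL* at 7.17 ± 1.55, *MXD1* at 4.35 ± 1.24 and *MYCN* at 0.028 ± 0.034 TPM. *MYCBP2* overlapped with *MNT*, *MXI1* with *MYCL* and *MYCL* with *MXD1* there, and on the FPKM scale *MAX* also overlapped with *MYCBP*. *MXI1* thus stood in the fourth place in UM-UC-3 and in the seventh in RT112, and *MYCBP* in the fifth and the third. Over all 8 libraries, 95.3% of the genes above 0 had a lower mean level than *MYC* and 7.93% a lower one than *MYCN*.

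**Figure D1:**
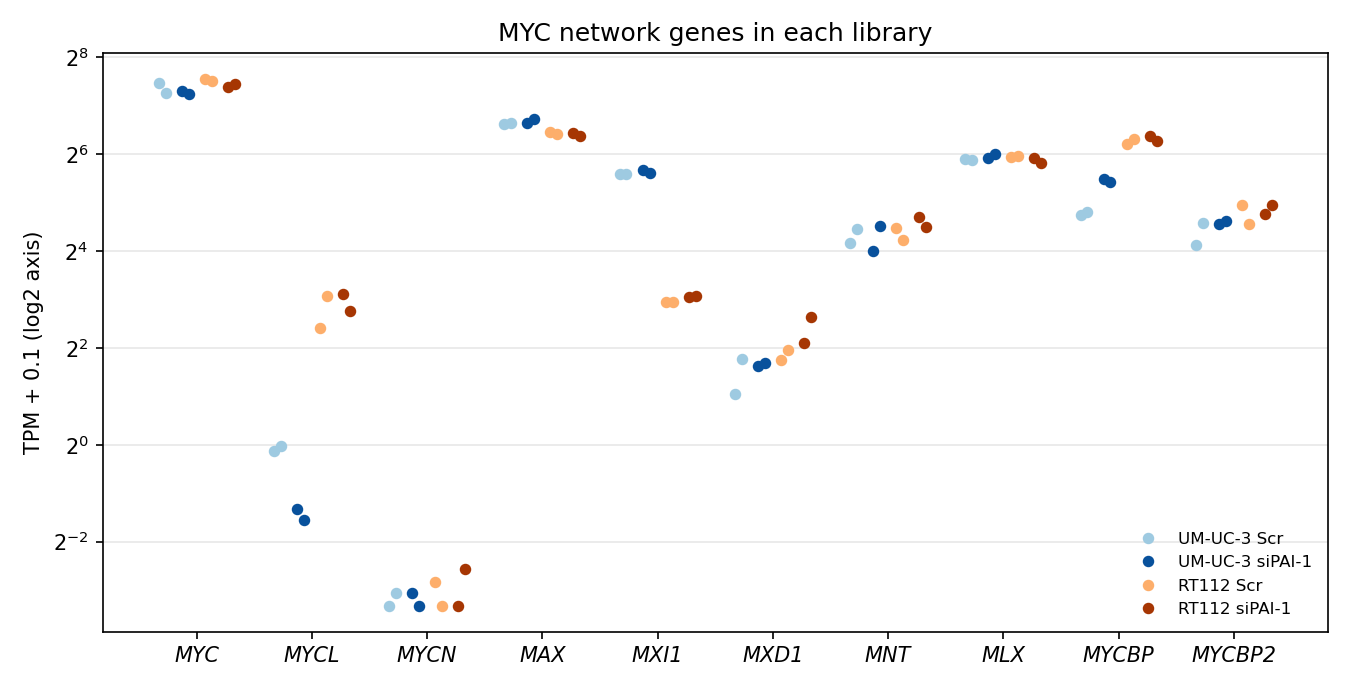
Level of the 10 genes in each of the 8 libraries, as TPM + 0.1 on a log2 axis, with 1 point per library and colours for the 4 groups. *MXI1* lies at 48.08 to 51.05 TPM in UM-UC-3 and at 7.6 to 8.34 TPM in RT112, and *MYCBP* forms 3 levels, from 26.64 TPM in UM-UC-3 Scr to 82.43 TPM in RT112 siPAI-1.

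With siPAI-1 in UM-UC-3, *MYCBP* was higher and *MYCL* lower, while *MAX*, *MXI1* and *MLX* lay close to their Scr levels. *MYCBP* had 26.6 and 27.7 TPM with Scr against 45.1 and 42.7 TPM after siPAI-1, a ratio of means of 1.61 and a log2 difference of 0.69. The siPAI-1 libraries both exceeded the Scr libraries, and the difference was 0.65 to 0.73 over the 12 alternatives of processing. This is the value that selected the set and is not tested.

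*MYCL*, the MYC family member first found amplified in small cell lung cancer, had 0.82 and 0.88 TPM with Scr against 0.30 and 0.24 TPM after siPAI-1. These levels correspond to an estimated 59.1 and 68.9 reads with Scr and 24.6 and 17.6 reads with siPAI-1. The libraries did not overlap, and the log2 difference of -1.36 depended on the pseudocount, at -0.54 with 1 TPM and -1.63 with 0.01 TPM. *MYC* itself had 176 and 154 TPM with Scr against 158 and 151 TPM after siPAI-1, so its groups overlapped. *MYCN* was listed at 0 in 1 library of each group and at 0.02 TPM in the other.

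*MAX*, the shared dimer partner, had 99.1 and 99.6 TPM with Scr against 100.3 and 105.6 TPM after siPAI-1 in UM-UC-3, and the groups differed by 0.05 on the log2 scale. *MXI1* had 48.1 and 48.2 TPM against 51.1 and 49.0 TPM (log2 difference 0.06), and *MLX* 59.4 and 59.1 TPM against 60.8 and 63.8 TPM (0.07). In all 3 genes the siPAI-1 libraries were the higher ones, with ratios of means of 1.04 to 1.05. *MXD1* (1.96 and 3.30 TPM with Scr, then 2.98 and 3.11 TPM), *MNT* (17.9 and 21.9, then 16.01 and 22.9 TPM) and *MYCBP2* (17.5 and 24.0, then 23.6 and 24.4 TPM) had overlapping groups.

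Of the 10 members, 4 had both siPAI-1 libraries above both Scr libraries in UM-UC-3 and 1 had both below, where 15.1% and 17.1% of 18528 genes tested did so. The rule used this contrast, and nothing is read from these counts. Over all genes, limma with Benjamini-Hochberg adjustment called 0.0% of the genes, and 482 genes lay higher and 632 lower where the unadjusted p was under 0.05.

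In RT112, 0 of the 10 members passed an adjusted p under 0.05 with siPAI-1, as did 0.0% of 18437 genes, and 0 passed an unadjusted p under 0.05, where 5.77% of the genes did. *MYCBP* had 73.9 and 79.3 TPM with Scr against 82.4 and 76.8 TPM after siPAI-1. The groups overlapped, with a log2 difference of 0.06 (SE 0.073, adjusted p = 0.888, limma).

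*MYC* had 187 and 183 TPM with Scr against 167 and 175 TPM after siPAI-1 in RT112. Both siPAI-1 libraries lay below both Scr libraries, by -0.11 on the log2 scale (SE 0.053, adjusted p = 0.838, limma). *MXD1*, a repressor that rises as cells differentiate, had 3.27 and 3.78 TPM with Scr against 4.22 and 6.11 TPM after siPAI-1 (log2 difference 0.52, SE 0.274, adjusted p = 0.838, limma). The siPAI-1 libraries were the higher ones, and they differed from each other by more than the lower of them differed from Scr.

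*MNT*, the most broadly expressed of the repressors, had 22.3 and 18.8 TPM with Scr against 26.0 and 22.6 TPM after siPAI-1 in RT112. *MXI1* had 7.66 and 7.60 TPM with Scr against 8.21 and 8.34 TPM after siPAI-1. *MLX* had 61.7 and 62.1 TPM with Scr against 60.8 and 56.6 TPM after siPAI-1. These groups did not overlap either, with log2 differences of 0.24 (SE 0.134), 0.12 (SE 0.144) and -0.08 (SE 0.068) that did not pass the test (limma, adjusted p 0.838, 0.878 and 0.838). In *MYCL* (5.21 and 8.25, then 8.55 and 6.65 TPM), *MAX* (87.4 and 85.4, then 87.0 and 82.7 TPM) and *MYCBP2* (31.0 and 23.6, then 27.2 and 31.0 TPM) they overlapped. *MYCN* reached at most 0.07 TPM, an estimated 4.0 reads, and no fold is given. In all, 3 members had both siPAI-1 libraries above Scr and 2 had both below, beside 18% and 14.7% of the genes tested.

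**Figure D2:**
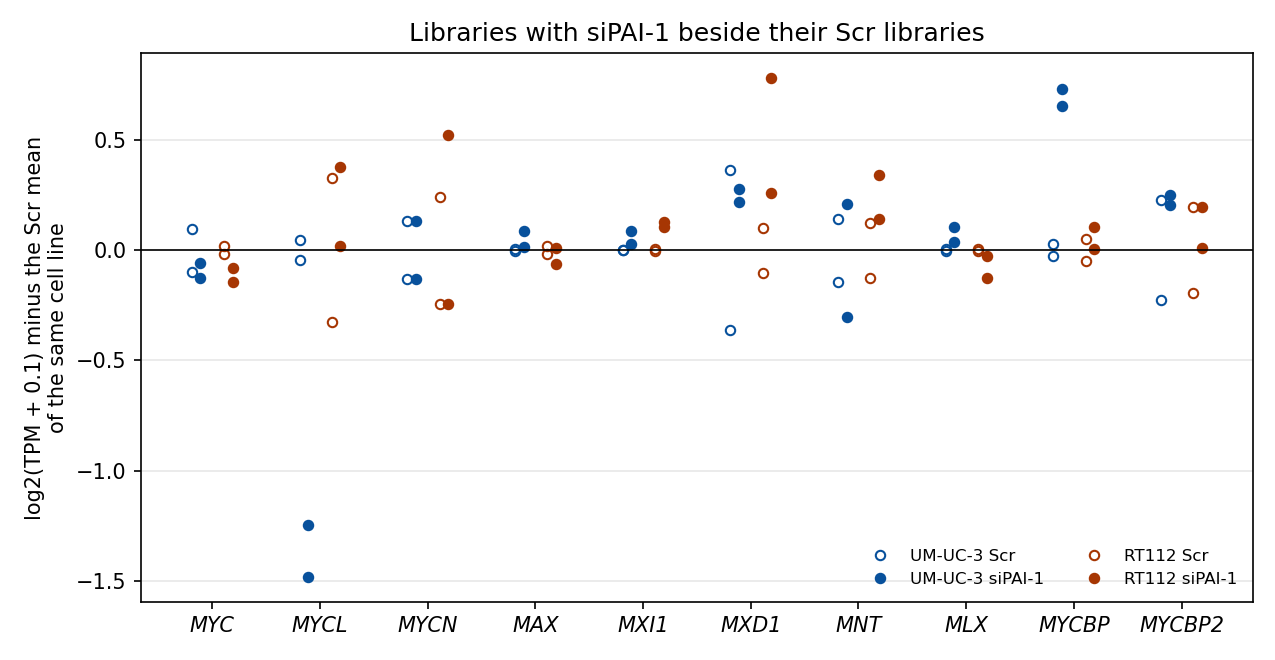
Each library as its log2(TPM + 0.1) minus the mean of the 2 Scr libraries of its line, with open points for Scr and filled points for siPAI-1, blue for UM-UC-3 and brown for RT112. The filled points of *MYCBP* lie 0.65 to 0.73 above the Scr mean in UM-UC-3 and 0.00 to 0.11 above it in RT112, and those of *MYCL* lie below Scr in UM-UC-3 and at or above the Scr mean in RT112.

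The siPAI-1 difference was set between the lines as RT112 minus UM-UC-3. For *MYCBP* it was -0.63 on the log2 scale, which is a description since its UM-UC-3 part selected the gene. Among the other 9 members, 0 passed an adjusted p under 0.05, beside 0.0% of 20274 genes. *MYCL* was the only one of these 9 with an unadjusted p under 0.05, which 6.76% of the genes had. Its difference was 1.56 (SE 0.434, unadjusted p = 0.00973, adjusted p = 0.632, limma), and over the alternatives the difference was 0.72 to 1.89 and the adjusted p 0.296 to 0.746. The differing siPAI-1 response of *MYCL* therefore failed the correction.

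Genes that work with the members also gave no calls with siPAI-1. Of 62 genes commonly listed as induced by MYC, 0 passed the adjusted test in UM-UC-3 (limma, 7 at an unadjusted p under 0.05), where 25 had a log2 difference above 0 and 37 below, with a median of -0.035 beside -0.005 over all genes. In RT112, 0 of the 62 passed (6 unadjusted), 18 lay above 0 and 44 below, and the median was -0.046 beside 0.014. *NPM1*, the nucleolar protein nucleophosmin, differed by -0.13 (SE 0.068) in UM-UC-3 and -0.04 (SE 0.061) in RT112, and *LDHA*, lactate dehydrogenase A, by 0.06 (SE 0.085) and -0.06 (SE 0.065). The lists of corepressors (12 genes), MYC coactivators (19), regulators of MYC protein turnover (18), genes repressed by MYC (7 tested), *MYCBP* partners, *MYCBP2* partners, MLX targets, proliferation genes (10), other MAX and MLX network genes (5) and genomic neighbours of members (5 tested) each had 0 calls in either line, with 0 to 3 genes a list at an unadjusted p under 0.05.

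Between the lines, *MXI1* was the member that differed with the smallest adjusted p, at 6.17 times the RT112 level in UM-UC-3, while *MYCL* and *MYCBP* were higher in RT112. Of the 10 members, 5 were called higher in RT112 and 2 higher in UM-UC-3, where 29.7% and 30.9% of 20274 genes were called. The lines differ in most genes, and the counts of members are to be read beside these shares. In *MYCL* and *MYCBP* all 4 RT112 libraries lay above all 4 UM-UC-3 libraries, and in *MAX* and *MXI1* all lay below, as in 27.2% and 28.8% of all genes. The median log2 difference was 0.187 over the members and -0.034 over all genes. The sums of epithelial and of mesenchymal markers given above separate the same libraries, and the part of these markers in any difference between the lines was not tested.

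Among the MYC genes, *MYCL* had 0.24 to 0.88 TPM in UM-UC-3 and 5.21 to 8.55 TPM in RT112. The ratio of means was 12.8 and the log2 difference 3.59 (SE 0.346, adjusted p = 2.48e-05, limma). It was 2.81 (SE 0.306) among Scr libraries and 4.37 (SE 0.273) among siPAI-1 libraries, where UM-UC-3 was lowest. In RT112, *MYC* made up 95.1% to 97.3% of the summed TPM of the 3 MYC genes, and in UM-UC-3 99.4% to 99.8%.

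*MYC* had 151 to 176 TPM in UM-UC-3 and 167 to 187 TPM in RT112, with overlapping libraries. The log2 difference was 0.15 (SE 0.049, adjusted p = 0.0240, limma). The call was lost without UM-UC-3 Scr replicate 2, UM-UC-3 siPAI-1 replicate 2, RT112 Scr replicate 1 or RT112 siPAI-1 replicate 2, with adjusted p between 0.0534 and 0.0680. It was also lost in Scr libraries alone (adjusted p = 0.176, limma) and siPAI-1 libraries alone (adjusted p = 0.0896), and held under 10 of 17 alternatives. *MYCN* differed by 0.18 (SE 0.231, adjusted p = 0.520, limma) with all libraries near 0.

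*MAX* had 99.1 to 105.6 TPM in UM-UC-3 and 82.7 to 87.4 TPM in RT112, without overlap. The log2 difference was -0.24 (SE 0.041, adjusted p = 0.000955, limma), and it was called under all 17 alternatives. *MYC* exceeded *MAX* in every library, by a ratio of 1.43 to 1.78 in UM-UC-3 and 1.92 to 2.14 in RT112.

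*MXI1*, a repressor that pairs with MAX, had 48.1, 48.2, 51.1 and 49.0 TPM in the UM-UC-3 libraries and 7.66, 7.60, 8.21 and 8.34 TPM in those of RT112. The UM-UC-3 mean was 6.17 times that of RT112, and the log2 difference of -2.61 (SE 0.057, adjusted p = 6.63e-09, limma) ranged from -2.64 to -2.48 over 17 alternatives. *MXI1* made up 65.3% to 72.9% of the summed TPM of *MXD1*, *MXI1* and *MNT* in UM-UC-3 and 21.4% to 25.2% in RT112. *MXD1* went the other way, at 1.96 to 3.30 TPM in UM-UC-3 and 3.27 to 6.11 TPM in RT112. Its log2 difference of 0.59 (SE 0.210, adjusted p = 0.0393, limma) lost the call without UM-UC-3 Scr replicate 1, either UM-UC-3 siPAI-1 replicate, RT112 Scr replicate 2 or RT112 siPAI-1 replicate 2 (adjusted p 0.0818 to 0.114). It was also lost in Scr libraries alone (adjusted p = 0.326, limma) and siPAI-1 libraries alone (adjusted p = 0.0750), and *MXD1* was called under 9 of 17 alternatives. *MNT* had 16.01 to 22.9 TPM in UM-UC-3 and 18.8 to 26.0 TPM in RT112 (log2 difference 0.19, SE 0.139, adjusted p = 0.269, limma).

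The other repressors of the family, which are not members, were read beside *MXI1*. *MXD4* had 27.1 to 34.9 TPM in UM-UC-3 and 3.02 to 5.95 TPM in RT112 (log2 difference -2.90, SE 0.199, adjusted p = 2.9e-06, limma). *MXD3* had 27.7 to 35.4 TPM and 6.29 to 8.08 TPM (-2.10, SE 0.095, adjusted p = 2.47e-07). These genes and *MXI1* were all higher in UM-UC-3, while *MGA*, the largest MAX partner, was not called.

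Summed over *MXD1*, *MXI1*, *MNT*, *MXD3* and *MXD4*, the repressors had 127.7 to 138.2 TPM in UM-UC-3 and 42.5 to 49.8 TPM in RT112. The MYC genes had 1.14 to 1.28 times the summed TPM of the repressors in UM-UC-3 and 3.64 to 4.49 times in RT112. With the 3 repressors among the members alone, the ratio was 2.01 to 2.61 and 4.58 to 6.33. The ratios describe mRNA and were not tested.

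**Figure D3:**
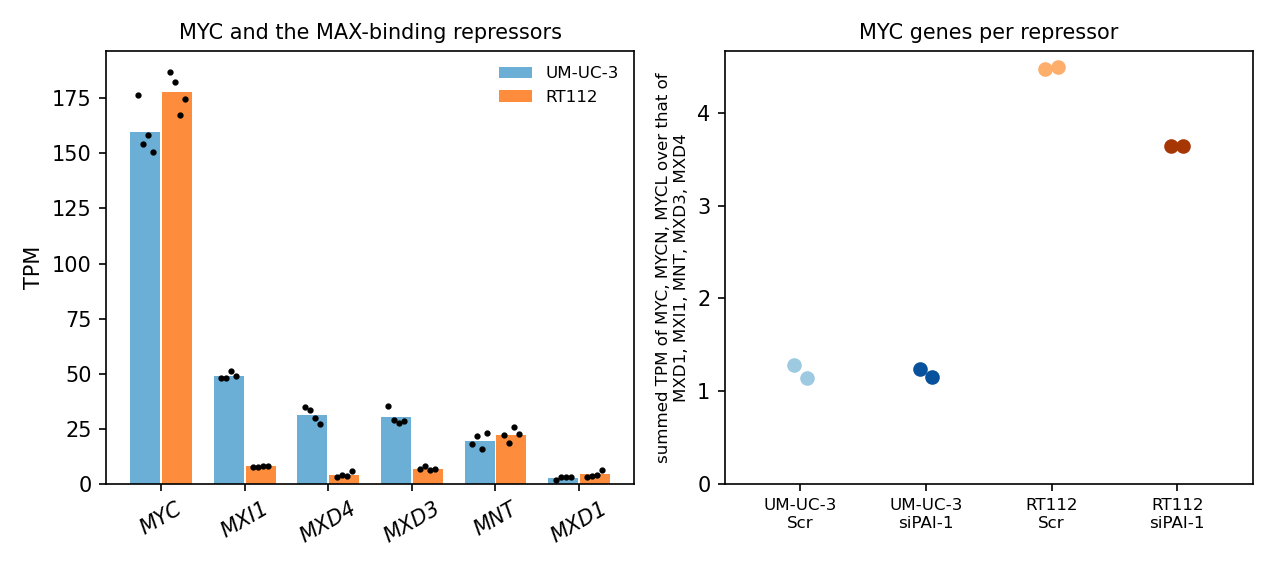
Left, TPM of *MYC* and of the MAX-binding repressors in each line, with bars for the mean of 4 libraries and dots for the libraries. Right, summed TPM of *MYC*, *MYCN* and *MYCL* divided by that of 5 repressors in each library, which lies at 1.14 to 1.28 in UM-UC-3 and 3.64 to 4.49 in RT112.

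In the MLX arm, *MLX* had 59.1 to 63.8 TPM in UM-UC-3 and 56.6 to 62.1 TPM in RT112. The log2 difference was -0.01 (SE 0.051, adjusted p = 0.851, limma), and its sign turned under some alternatives. Its partner *MLXIPL*, the carbohydrate response factor ChREBP, was listed at 0 in both UM-UC-3 Scr libraries, had 0.05 and 0.08 TPM in UM-UC-3 siPAI-1 and 2.40 to 3.86 TPM in RT112 (adjusted p = 6.76e-07, limma). *MLXIP*, the partner also known as MondoA, had 12.9 to 16.8 TPM in UM-UC-3 and 18.6 to 28.5 TPM in RT112 (log2 difference 0.68, SE 0.111, adjusted p = 0.000673, limma).

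*TXNIP*, a well-known target of MLX with these partners and an inhibitor of glucose uptake, had 4.93 to 6.04 TPM in UM-UC-3 and 84.7 to 100.8 TPM in RT112. Its log2 difference was 4.02 (SE 0.088, adjusted p = 6.66e-09, limma), and *ARRDC4*, the other listed target, had 3.47 to 4.12 TPM and 3.78 to 5.03 TPM and was not called. Within each line, the siPAI-1 and Scr libraries of *TXNIP* overlapped.

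*MYCBP* had 26.6 to 45.1 TPM in UM-UC-3 and 73.9 to 82.4 TPM in RT112. The log2 difference was 1.17 (SE 0.122, adjusted p = 3.93e-05, limma). It was 1.49 (SE 0.071) among Scr libraries and 0.86 (SE 0.069) among siPAI-1 libraries, both given without a test because the UM-UC-3 values of each group entered the contrast that selected the gene. With siPAI-1, UM-UC-3 thus remained below RT112. RefSeq also has a readthrough transcript of *GJA9* and *MYCBP* for which no entry was matched in the tables. *GJA9*, which lies 691 bases from *MYCBP*, had at most 0.38 TPM in any library.

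Next to *MYCBP*, *RRAGC*, a Rag GTPase of amino acid sensing, had 21.2 to 22.6 TPM in UM-UC-3 and 16.4 to 18.1 TPM in RT112 (log2 difference -0.33, SE 0.064, adjusted p = 0.00184, limma). *RHBDL2*, a rhomboid protease, had 0.03 to 0.34 TPM in UM-UC-3 and 10.2 to 19.4 TPM in RT112 (adjusted p = 2.05e-06, limma). The neighbours of *MYCBP* did not move in 1 direction. Of 6 genes for proteins that bind MYCBP or kinase A subunits that share its anchors, 1 was called higher in RT112 and 3 higher in UM-UC-3. Among them, *MYCBPAP* reached at most 0.07 TPM in any library. *AKAP1*, the mitochondrial anchoring protein, had 16.7 to 24.2 TPM in UM-UC-3 and 41.6 to 47.0 TPM in RT112 (log2 difference 1.09, SE 0.109, adjusted p = 3.16e-05, limma). *AKAP8*, a nuclear anchoring protein, differed by -0.78 (SE 0.096), the regulatory subunit *PRKAR2A* by -0.65 (SE 0.121) and the catalytic subunit *PRKACA* by -0.49 (SE 0.069).

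*MYCBP2* had 17.5 to 24.4 TPM in UM-UC-3 and 23.6 to 31.0 TPM in RT112, with overlap. Its log2 difference of 0.34 (SE 0.123, adjusted p = 0.0419, limma) lost the call without UM-UC-3 Scr replicate 1, either UM-UC-3 siPAI-1 replicate, RT112 Scr replicate 1 or RT112 siPAI-1 replicate 2 (adjusted p 0.0658 to 0.113). It was also lost in Scr libraries alone (adjusted p = 0.218, limma) and siPAI-1 libraries alone (adjusted p = 0.0811), and *MYCBP2* was called under 7 of 17 alternatives. *FBXO45*, the F-box partner of this ligase, was higher in UM-UC-3 (log2 difference -0.62, SE 0.078, adjusted p = 0.00014, limma). Of its substrates, *NMNAT2*, an axon survival enzyme, had 0.04 to 0.18 TPM in UM-UC-3 and 1.10 to 1.80 TPM in RT112. *MAP3K12*, the stress kinase DLK, had 12.3 to 16.4 TPM and 0.34 to 3.29 TPM, and both were called (adjusted p = 3.95e-05 and 0.000209, limma).

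**Figure D4:**
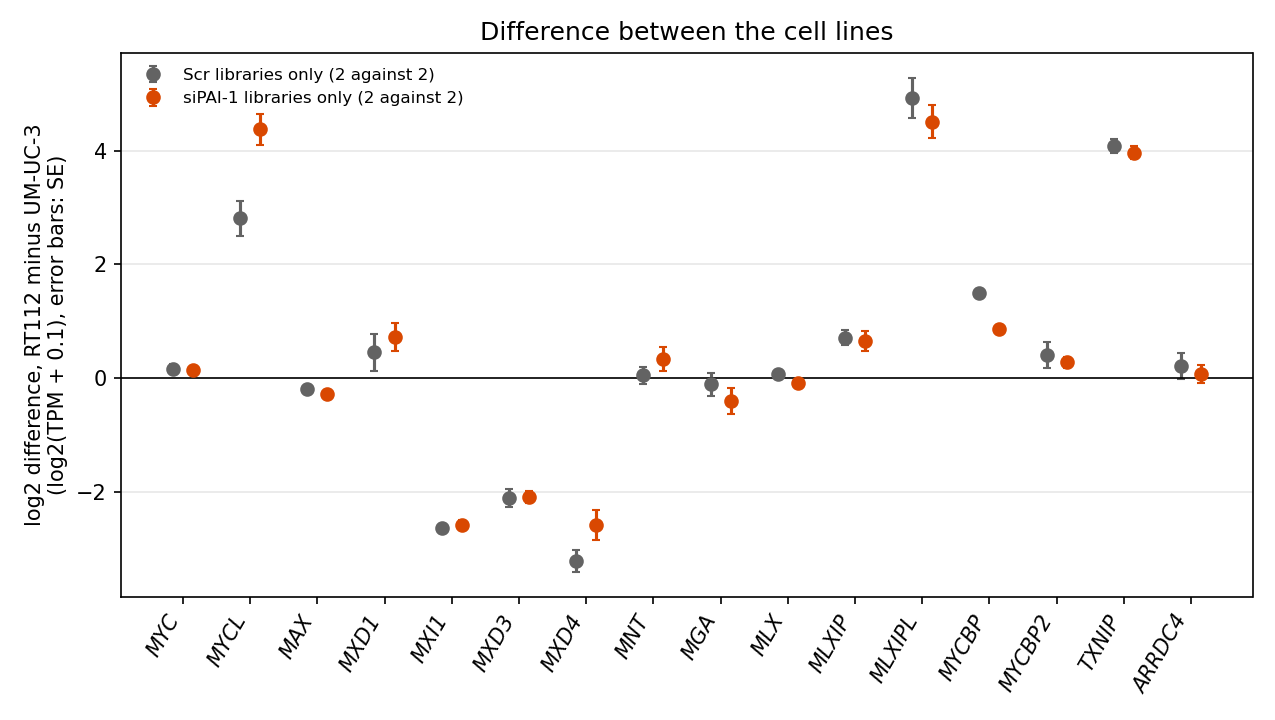
Log2 difference of RT112 minus UM-UC-3 for network genes and a pair of MLX targets, with Scr libraries in grey and siPAI-1 libraries in orange (2 against 2 each, error bars SE). *MXI1*, *MXD3* and *MXD4* lie below 0 with either siRNA, and the *MYCBP* difference is 1.49 with Scr and 0.86 with siPAI-1.

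Genes commonly listed as induced by MYC went both ways between the lines. Of 62, 31 were called higher in RT112 and 19 higher in UM-UC-3, and 12 were not called. The median log2 difference was 0.086 beside -0.034 over all genes. *DCTPP1*, a nucleotide pyrophosphatase, and *SLC29A2*, a nucleoside transporter, were higher in RT112 by 1.29 (SE 0.055) and 1.24 (SE 0.174). *PLK4*, the kinase of centriole duplication, and *LDHA* were higher in UM-UC-3, with log2 differences of -1.62 (SE 0.112) and -0.87 (SE 0.053). Of 10 proliferation genes 2 were called higher in RT112 and 7 higher in UM-UC-3. Among them, *MCM2*, a subunit of the replicative helicase, differed by -0.77 (SE 0.059) and *CDK1*, the mitotic kinase, by 0.45 (SE 0.051).

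Of 7 tested genes commonly listed as repressed by MYC, 2 were called higher in RT112 and 4 higher in UM-UC-3. *NDRG1*, named for its repression by MYC-family proteins, had 334 to 456 TPM in UM-UC-3 and 40.9 to 49.7 TPM in RT112 (log2 difference -3.18, SE 0.097, adjusted p = 3.05e-08, limma). *CDKN1C* was likewise higher in UM-UC-3 (-2.23, SE 0.261), while the cell cycle inhibitor *CDKN1A* (1.21, SE 0.093) and *NDRG2* (2.75, SE 0.082) were higher in RT112. Genes of this list therefore moved in both directions.

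Of the 19 coactivators and cofactors of MYC, 3 were called higher in RT112 and 12 higher in UM-UC-3. *ZBTB17*, the zinc finger protein MIZ1 through which MYC represses genes, differed by -1.68 (SE 0.215, adjusted p = 0.000151, limma), and the acetyltransferases *EP300* and *KAT2A* by 0.48 (SE 0.061) and 0.45 (SE 0.130). Of 12 corepressor genes recruited by MXD and MNT proteins, 5 were called higher in RT112 and 4 higher in UM-UC-3. *SAP30*, a subunit of the SIN3 complex, had 51.2 to 58.0 TPM in UM-UC-3 and 8.72 to 10.6 TPM in RT112 (log2 difference -2.48, SE 0.074, adjusted p = 2.84e-08, limma). *NCOR1* differed by -1.27 (SE 0.078), *SUDS3* by 0.67 (SE 0.078) and *RBBP7* by 0.57 (SE 0.060).

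Of 18 regulators of MYC protein turnover, 7 were called higher in RT112 and 5 higher in UM-UC-3. The ubiquitin ligase genes *SKP2* (log2 difference 0.76, SE 0.10) and *STUB1* (0.75, SE 0.045) were higher in RT112, and *FBXL14* (-0.997, SE 0.111) and *TRIM32* (-0.43, SE 0.101) were higher in UM-UC-3.

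The genes most like *MYC* over the 8 libraries, by Pearson's r of log2(TPM + 0.1) among 12802 genes whose mean level reached 1 TPM, were *GSS* (0.978), *UCK2* (0.960) and *H3F3B* (0.954). For *MYCBP*, *HYKK* (0.992) and *HOOK2* (0.990) were among the 3 highest. *HOOK2*, a linker of microtubules and organelles, had 3.70 and 3.40 TPM in UM-UC-3 Scr, 9.00 and 5.98 TPM in UM-UC-3 siPAI-1 and 21.7 to 23.9 TPM in RT112. Its libraries were thus ordered like those of *MYCBP*, lowest in UM-UC-3 Scr and highest in RT112. These are descriptions over libraries that fall into a pair of lines, and the likeness of *MYCBP* includes the contrast that selected it.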

How the data were processed

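Stranded mRNA libraries were read in single reads of 75 bases. The submitters' processing notes name STAR 2.5.0, RSEM 1.2.25 and GRCh38, while the methods name cutadapt, STAR and featureCounts. Per gene, FPKM (per length and library total) was deposited by the authors, and so was TPM, whose sum is fixed. No counts were used here. The 92 ERCC entries, at 0 in all libraries, were left out.

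Depth was estimated from the FPKM steps of short genes with 1 transcript, searched between 8 and 75 M reads (M for mega), and reads per gene are upper estimates. Tests were two-sided with limma 3.58.1 in R 4.3.3 (lmFit, eBayes with trend) on log2(TPM + 0.1), which understates the change of low genes, with Benjamini-Hochberg adjustment over all genes detected above 0 TPM in any fitted library. Each line was fitted separately for siPAI-1 against Scr. The lines were compared over 8 libraries with the siRNA as covariate, and the differing siPAI-1 effect with a model of 4 groups. The scripts were tested on simulated data. Python 3.11.15 made summaries and plots.

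The members and the 16 gene lists were chosen with earlier results of these data known, and the lists were written from general knowledge. Of 201 list symbols, 195 had an entry. Named are all members, the 3 genes most like *MYC* and *MYCBP*, and of each list that is not a marker list the called genes if 4 or fewer, otherwise the 2 highest and 2 lowest called genes whose mean reached 1 TPM, or where none was called the 2 genes of highest level. Some genes that this rule names are not reported here. *GJA9*, *MGA* and *ARRDC4* were named after their values were seen. Alternatives were pseudocounts of 1 and 0.01 TPM, FPKM, rescaling by the median ratio, a mean of at least 1 TPM, eBayes without trend, a replicate block, 1 fit over all 8 libraries, Scr or siPAI-1 libraries only, and each library left out.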

Additional observations from a re-analysis of the deposited data

Results flagged for a closer look

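In 9 of the members and of the list genes named by the rule for named genes, both siPAI-1 libraries lay on one side of both Scr libraries in one line and on the opposite side in the other. The difference of the siPAI-1 effect (RT112 minus UM-UC-3, log2) was tested in each and passed an adjusted p under 0.05 in none (limma). Over all 164 members and genes of the lists without cell type markers, 18 had such opposite sides. The shares of all genes given above are for each line alone. How many of all genes had opposite sides was not counted, so whether the 9 or the 18 are more than usual was not tested. The difference of the siPAI-1 effect was called in 0 of the 18. Among the 9 it was -0.15 for *MLX* (adjusted p = 0.843). Among cofactors and targets it was 1.11 for *ZBTB17*, which in UM-UC-3 had 33.9 and 31.3 TPM with Scr against 25.02 and 21.6 TPM after siPAI-1, and in RT112 6.34 and 7.42 TPM against 11.5 and 9.79 TPM. It was 0.70 for *SLC29A2*. Among genes of MYC protein turnover it was 0.41 for *SKP2*, 0.51 for *FBXL14* and -0.15 for *SET*. It was 0.51 for *AKAP1* and -0.30 for *SPRYD3*, and -0.80 for *PVT1*, the long non-coding RNA gene next to *MYC*, which had 44.7 and 38.3 TPM, then 54.6 and 55.2 TPM, in UM-UC-3 and 55.9 and 73.3 TPM, then 47.1 and 50.6 TPM, in RT112. Groups of 2 libraries were too small for a test of single outlying libraries.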

How the results depend on the processing

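The alternatives gave 756 values for 55 results, of which 693 kept their direction and call or stayed within the spread, 25 lost a call, 21 moved and 17 turned direction. *MAX*, *MXI1* and *MYCL* were called between the lines under all 17 alternatives. The *MYCBP* difference between the lines kept its direction, at 0.86 to 1.49 over the 17, and its calls are not counted here. Some alternatives use only part of the UM-UC-3 libraries, whose values selected the gene. Members called higher in RT112 numbered 3 on FPKM, 3 without trend, 2 in Scr libraries and 2 in siPAI-1 libraries, and 2 to 5 with a library left out. Over all genes, siPAI-1 gave 1 gene called lower in UM-UC-3 at a mean of at least 1 TPM and 2 called higher in RT112 with 1 fit over all 8 libraries. For the differing siPAI-1 effect, 4 genes were called higher and 3 lower without trend, and 0 to 101 higher and 0 to 42 lower with a library left out. The 101 came without RT112 siPAI-1 replicate 2 (22 lower), the 42 without UM-UC-3 siPAI-1 replicate 1 (2 higher), and 20 higher without RT112 siPAI-1 replicate 1. The lone library left in a group is assumed to vary like the others.

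The *MLX* difference between lines was 0.028 after rescaling by the median ratio, 0.063 in Scr libraries and -0.028 to 0.024 with a library left out. With a library left out, the siPAI-1 difference in RT112 was -0.24 to 0.52 for *MYCN*, -0.13 to 0.53 for *MYCL*, -0.063 to 0.010 for *MAX* and -0.093 to 0.30 for *MYCBP2*, and the difference of the effect -0.12 to 0.078 for *MYC*, -0.24 to 0.52 for *MYCN*, -0.092 to 0.63 for *MXD1* and -0.35 to 0.10 for *MYCBP2*. None of these was called, and the causes were not tested. Replicate numbers did not pair the libraries (correlations of deviations 0.056 and -0.046), and with them as a block *MYCBP2* lost its call between the lines (adjusted p = 0.0537, limma), where 5966 genes were called higher in RT112 and 6219 in UM-UC-3. With 2 libraries a group, small differences are not detectable.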
